A study of Rattus norvegicus with 20 samples.

Results

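The genes described here are 36 members of the nuclear receptor family, chosen by name: the receptors for retinoids, fatty acids, oxysterols, bile acids, thyroid hormone, vitamin D, estrogen, progesterone, mineralocorticoids and foreign compounds, and a group of orphan receptors whose natural ligand is not settled. The glucocorticoid receptor and the Rev-erb receptors of the circadian clock were left out of the list, and the list does not hold every other family member. All 36 symbols were found in the gene table of 19060 genes, and 27 of them had enough reads to be tested. RNA had been sequenced from 20 rat lungs, each animal giving its own library, and each of the 4 groups held 5 animals. The CLP+VNS rats had caecal ligation and puncture (CLP), an operation that lets gut bacteria into the abdomen and that the study uses as a model of acute respiratory distress syndrome, and stimulation of the right cervical vagus nerve, the branch that runs through the neck (VNS). The CLP rats had the operation without stimulation. The Sham+VNS rats had an opened abdomen with handling of the caecum and no ligation or puncture, and the same nerve stimulation. The Sham rats had the sham operation alone. None of the sources used here gives strain, age, sex, anaesthesia or the hours between surgery and collection, so nothing is known of what the 4 groups share in these respects.

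Nuclear receptors are transcription factors that bind DNA directly and change their activity when a small, fat-soluble molecule enters a pocket in the protein. Many of them, among them the receptors for retinoic acid, thyroid hormone, vitamin D, fatty acids and oxysterols, bind DNA as a pair with a retinoid X receptor, and recruit corepressors without ligand and coactivators with it. In the lung, retinoic acid signalling is known for its part in the formation of alveoli, PPAR gamma for its part in alveolar macrophages, and the mineralocorticoid receptor for sodium transport across epithelia.

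Each library held between 13729646 and 14453181 counts, so depth differed little between groups. Levels are given in CPM, a gene's counts scaled by the library's normalised total, and as mean ± SD over 5 animals. Values of single libraries stand in order of replicate number, which is 1, 3, 5, 8 and 11 in CLP+VNS, 1, 3, 4, 5 and 6 in CLP, and 1 to 5 in Sham+VNS and in Sham. TPM, the authors' value scaled for transcript length as well, is used where genes are set beside each other. The defining markers of lung were abundant in every library: surfactant protein C (Sftpc) was at 9544 CPM or more, the club cell gene Scgb1a1 at 3085 CPM or more and the type 1 cell gene Ager at 1378 CPM or more. Sham replicate 1 stood apart from the other Sham libraries. Its summed level of 7 adipose markers was 1713 CPM, with Adipoq at 285 CPM against a Sham median of 0.141 CPM, and its summed level of 7 cardiac markers was 182 CPM against a Sham median of 16.2 CPM. Results that turn on this library are given with and without it. Adipose markers were also uneven in the Sham+VNS group, at 461 CPM in replicate 2 and 141 CPM in replicate 4, while the other 3 libraries were lower, the lowest at 25.5 CPM, and cardiac markers reached 60.4 CPM in Sham replicate 5 and 32.5 CPM in CLP+VNS replicate 3. Bulk tissue was measured, so fewer cells of a type and less RNA per cell cannot be told apart. Nothing in the labels says more about how the 5 animals of a group were raised or processed, and the p-values measure the spread between these animals.

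The receptors differed widely in level, down to genes with single reads. Nr1h2 (liver X receptor beta) had the highest mean, 65.3 ± 4.93 TPM over the 20 libraries, followed by Rara at 59.2 ± 4.76 TPM, Thra at 58.7 ± 9.51 TPM, Nr1h3 (liver X receptor alpha) at 54.8 ± 4.57 TPM and Rxra at 53.6 ± 2.49 TPM. The order among these 5 genes was not sharp: Rara lay above Thra in 10 of 20 libraries and Nr1h2 lay above Rara in 16 of 20. Nr6a1, at 4.19 ± 0.361 TPM, lay above the next gene in the order, Vdr at 3.00 ± 0.434 TPM, in all 20 libraries. Summed over the 36 genes, the receptors took 573 ± 32.0 TPM in CLP+VNS lungs, 558 ± 16.0 TPM in CLP lungs, 632 ± 19.4 TPM in Sham+VNS lungs and 643 ± 32.9 TPM in Sham lungs.

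**Figure D1:**
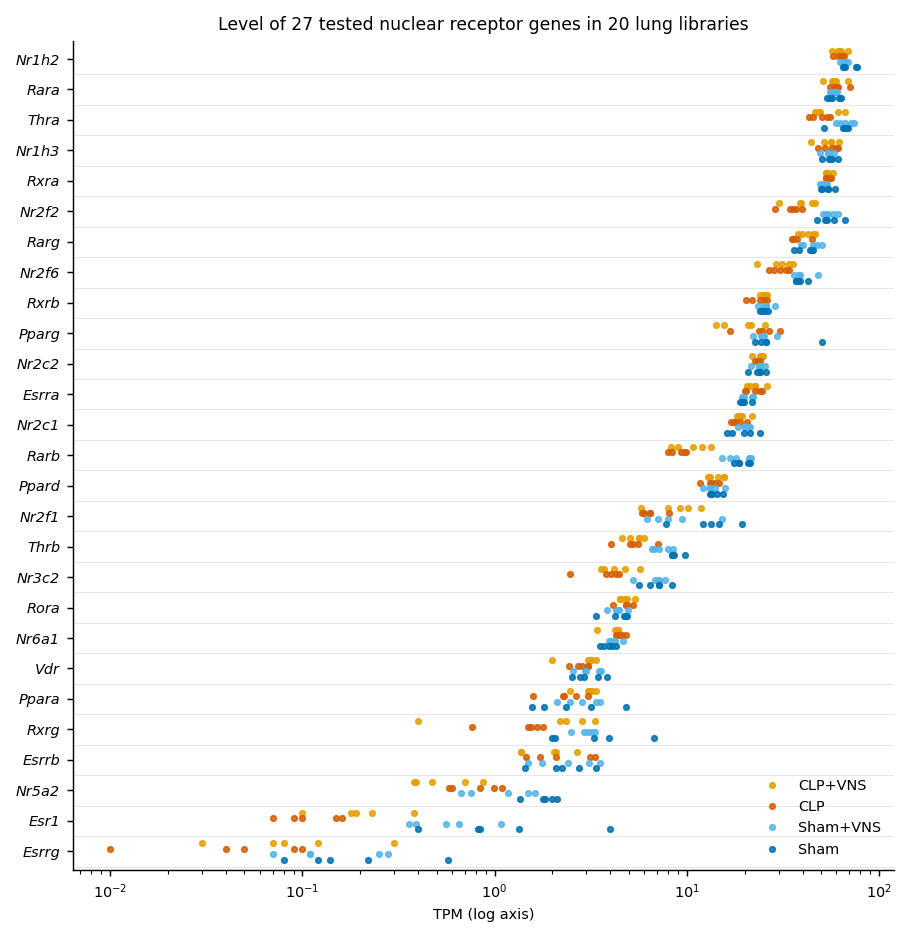
TPM of the 27 tested receptor genes on a log axis, 1 point per library, ordered by mean TPM, with the 4 groups in separate rows of points. Nr1h2 is highest at a mean of 65.3 TPM. In TPM, all CLP+VNS and CLP points of Rarb and Nr2f2 lie to the left of all Sham+VNS and Sham points. For Thrb and Nr3c2 the points overlap in part. In CPM, Nr2f2 reached 82.5 in CLP+VNS libraries, above its lowest Sham value of 79.6.

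CLP lungs had lower transcript levels of 11 receptors and higher levels of 2 than Sham lungs. The retinoic acid receptor gene Rarb, the thyroid hormone receptor gene Thrb, the mineralocorticoid receptor gene Nr3c2, the estrogen receptor gene Esr1 and the orphan receptor genes Nr2f2 and Nr5a2 were lower in every CLP library than in any Sham library. Esrra and Nr6a1 were higher in every CLP library than in any Sham library. With edgeR's quasi-likelihood test, 13 of the 27 tested receptors passed an adjusted p of 0.05, where 40.3% of all 14794 genes tested did, so the share of receptors called is near that background and is no result about the receptors. For calls of lower level, the receptors' 11 of 27 stands beside 20.5% of all genes, and for higher level their 2 of 27 beside 19.8%. The median log2 fold change was -0.07 over the receptors and -0.01 over all genes tested. The groups did not overlap for 8 receptors, against 26.1% of all genes. The split of all called genes was 2926 higher and 3029 lower, and with scaling to total counts it was 2347 higher and 3756 lower; the receptors called, 2 higher and 11 lower, were the same genes under both. Without Sham replicate 1, 11 receptors were called: Rxra joined the higher ones, and Rxrg, Esrrg and Nr2f6 were no longer called. DESeq2 called 15 receptors, the same 13 with Rara and Rxra as 2 more higher ones.

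**Figure D2:**
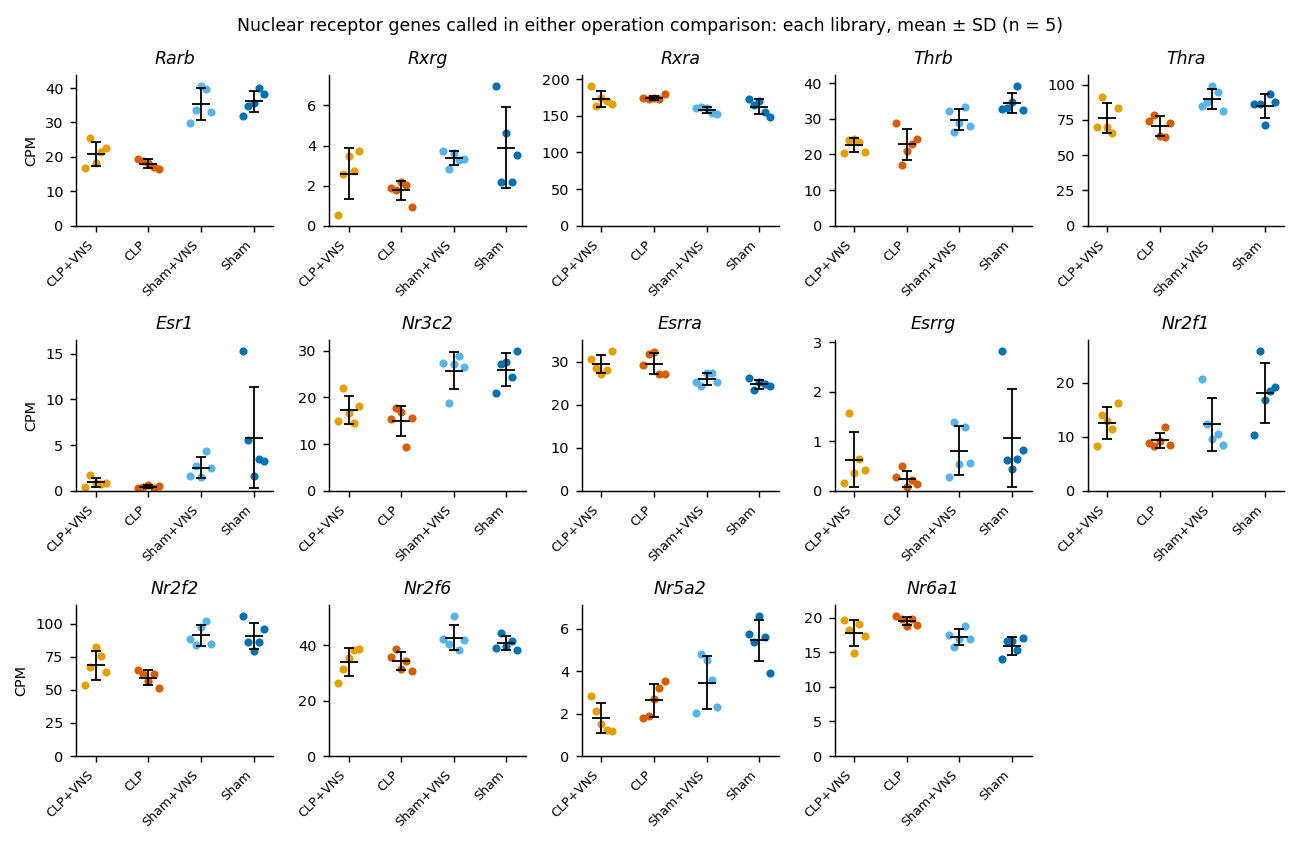
CPM of the 14 receptor genes called in CLP against Sham or in CLP+VNS against Sham+VNS, 1 point per library, with the mean and SD of 5 animals as black bars and the axes starting at 0. For Rarb the CLP points lie between 16.5 and 19.5 CPM and the Sham points between 31.7 and 39.9 CPM; the single high Sham point of Esr1 (15.3 CPM), Esrrg (2.82 CPM) and Rxrg (6.98 CPM) is replicate 1.

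Among the retinoid receptors, Rarb changed most clearly. The gene (identifier 24706) encodes retinoic acid receptor beta, and its own promoter is a textbook target of retinoic acid receptors, through a motif with a pair of direct repeats 5 bases apart. The window of 250 bases before and 50 bases after its start, from RefSeq on rat assembly GRCr8 at chr15:11336142-11336441 on the plus strand, is shown because it holds that motif, searched as GGTTCA, any 5 bases and AGTTCA on both strands and marked in capitals.
Rarb: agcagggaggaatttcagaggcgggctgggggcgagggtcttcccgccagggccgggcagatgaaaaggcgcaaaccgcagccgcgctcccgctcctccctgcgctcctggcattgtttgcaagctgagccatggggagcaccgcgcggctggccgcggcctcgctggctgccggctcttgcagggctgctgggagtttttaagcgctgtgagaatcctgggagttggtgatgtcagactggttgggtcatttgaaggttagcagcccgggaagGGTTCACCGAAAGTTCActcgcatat

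The motif begins 25 bases after the annotated start. It occurs in 3 of the 33469 rat promoter windows of the same length, or 0.00896%, and Rarb is the 1 receptor gene among the 32 with a window that holds it. Its first repeat, GGTTCA alone, is found in 11.7% of all windows and its second, AGTTCA alone, in 14.5%. A match of letters is a description of the window and no evidence that a receptor was bound there in these lungs.

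Rarb had 19.5, 18.9, 18.3, 17.1 and 16.5 CPM in the CLP libraries, against 31.7, 34.9, 35.7, 39.9 and 38.3 CPM in the Sham libraries. The groups were wide apart, the highest CLP library lying well under the lowest Sham library. The log2 fold change was -0.999 ± 0.11 (SE), with an adjusted p of 9.46e-07, the smallest of any receptor. In stimulated rats Rarb had 16.6, 25.6, 18.1, 21.4 and 22.5 CPM in CLP+VNS libraries, against 29.9, 33.7, 40.7, 39.7 and 32.9 CPM in Sham+VNS libraries. Here too the groups did not overlap, with a log2 fold change of -0.76 ± 0.11 and an adjusted p of 2.92e-05. Rarb passed the threshold in both comparisons under every alternative setting tried. Of the summed TPM of the 3 retinoic acid receptor genes, Rarb took 8.35 ± 0.551% in CLP lungs and 16.3 ± 1.07% in Sham lungs, and 9.47 ± 1.26% in CLP+VNS lungs and 15.3 ± 2.21% in Sham+VNS lungs.

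The other retinoic acid receptors were not called by edgeR. Rara averaged 101 ± 9.63 CPM in CLP lungs and 89.5 ± 6.85 CPM in Sham lungs, a log2 difference of 0.18 with an adjusted p of 0.0533. It was close to the threshold and passed it with DESeq2 (adjusted p = 0.0398), with RLE scaling (0.0477) and without any of 6 single libraries, among adjusted p-values from 0.0364 to 0.167 over the 20 left out in turn. With scaling to total counts it was at 0.12, with an adjusted p of 0.188. Rarg, at 67.5 ± 5.85 CPM in CLP lungs and 70.0 ± 6.04 CPM in Sham lungs, differed by -0.05 (95% interval -0.21 to 0.10). Of the retinoid X receptors, the shared partners of many receptors named here, Rxra (identifier 25271) was the most abundant. It had 174, 172, 174, 173 and 179 CPM in CLP libraries, against 173, 164, 170, 155 and 149 CPM in Sham libraries. Sham replicate 1 lay within the CLP range, and the log2 difference of 0.10 ± 0.05 had an adjusted p of 0.0801. In stimulated rats Rxra had 191, 163, 174, 170 and 167 CPM in CLP+VNS libraries, against 161, 162, 161, 154 and 153 CPM in Sham+VNS libraries. Every CLP+VNS library was higher, and the log2 fold change of 0.13 ± 0.05 passed at an adjusted p of 0.0413. That call was lost without CLP+VNS replicate 1, at 0.09 and an adjusted p of 0.135, and without any of 7 other single libraries. Rxrb was not called in either comparison.

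Rxrg (identifier 83574), the retinoid X receptor known chiefly from muscle and brain, was low: 1.86, 1.76, 2.17, 2.05 and 0.955 CPM in CLP libraries, against 6.98, 2.17, 4.64, 2.18 and 3.52 CPM in Sham libraries. The groups overlapped only narrowly, and Sham replicate 1 was highest. The log2 fold change was -1.14 ± 0.38, with an adjusted p of 0.0213. Without Sham replicate 1 it was -0.83 with an adjusted p of 0.0821, and without CLP replicate 6 it was -0.99 with an adjusted p of 0.0576. In stimulated rats Rxrg had 0.522, 2.58, 3.46, 2.71 and 3.72 CPM in CLP+VNS libraries, against 3.73, 2.85, 3.64, 3.28 and 3.31 CPM in Sham+VNS libraries, and was not called.

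Of 8 tested retinoic acid target genes, 2 were higher and 2 were lower in CLP lungs. Dhrs3, an enzyme that turns retinal back into retinol, rose by 0.74 ± 0.12 on the log2 scale (adjusted p = 7.58e-05). Rarres2, which encodes the chemokine-like protein chemerin, rose by 0.68 ± 0.22 (adjusted p = 0.0200), a call lost without Sham replicate 5 or without CLP replicate 5. Among all genes, 19.8% were called higher and 20.5% lower, and a link of these targets to Rarb was not tested.

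With edgeR and with DESeq2, 0 of the 5 tested lipid sensors were called in CLP against Sham or in CLP+VNS against Sham+VNS, and 0 had an unadjusted p under 0.05 with edgeR. Nr1h2 had 77.5, 74.7, 76.7, 69.7 and 81.3 CPM in CLP+VNS libraries, 78.8, 77.9, 78.7, 76.5 and 72.4 CPM in CLP libraries, 78.5, 78.4, 76.3, 71.8 and 79.7 CPM in Sham+VNS libraries and 74.3, 87.8, 77.3, 78.3 and 85.7 CPM in Sham libraries. All 4 groups lay over each other, and the CLP against Sham difference was -0.07 (95% interval -0.18 to 0.04). For Nr1h3 the difference was 0.09 (95% interval -0.07 to 0.26), and for Ppard, the fatty acid receptor found in most tissues, 0.03 (95% interval -0.12 to 0.18). The intervals for the other PPAR genes were wider. Ppara, the fatty acid receptor of oxidative tissues, differed by -0.10 (95% interval -0.58 to 0.38). Pparg, the receptor of fat cells and alveolar macrophages, had 25.9, 18.8, 29.7, 28.0 and 34.5 CPM in CLP libraries, against 52.0, 25.2, 28.2, 24.1 and 26.7 CPM in Sham libraries, and differed by -0.19 (95% interval -0.62 to 0.24). Its single high value belonged to Sham replicate 1, the library with adipose markers; their part in it was not tested.

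Of 16 tested PPAR targets, 7 were higher and 1 was lower in CLP lungs, where 19.8% of all genes were called higher and 20.5% lower, and 5 were higher and 1 lower in CLP+VNS lungs against Sham+VNS lungs. The median log2 fold change of the list in CLP against Sham was 0.16, where that of all genes tested was -0.01. Pdk4, a kinase that shuts carbohydrate out of oxidation, rose by 2.32 ± 0.23 on the log2 scale (adjusted p = 4.43e-07), with 28.7 to 39.7 CPM in CLP libraries and 4.07 to 10.9 CPM in Sham libraries. Angptl4, an inhibitor of lipoprotein lipase, rose by 1.84 ± 0.41 (adjusted p = 0.00164). Vldlr, a lipoprotein receptor, fell by 0.92 (SE 0.09, adjusted p = 5.08e-07). Pdk4 and Angptl4 are also known targets of the glucocorticoid receptor. Of 9 tested targets of the liver X receptors, 2 were higher and 2 lower, a share near that of all genes. The lipid carrier gene Apoe fell by 0.84 (SE 0.26, adjusted p = 0.0152), a call lost without Sham replicate 1 at -0.49 and an adjusted p of 0.0628. Srebf1, the regulator of fatty acid synthesis, fell by 0.56 (SE 0.17, adjusted p = 0.0126), while its textbook target Fasn, fatty acid synthase, rose by 0.42 ± 0.09 (adjusted p = 0.000790).

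Both thyroid hormone receptor genes were lower in CLP lungs. Thrb (identifier 24831) had 28.9, 17.2, 21.1, 22.8 and 24.2 CPM in CLP libraries, against 32.7, 33.1, 34.8, 39.2 and 32.5 CPM in Sham libraries. The groups did not overlap, and the log2 fold change was -0.59 ± 0.11 with an adjusted p of 0.000205. In stimulated rats Thrb had 20.3, 24.1, 24.3, 23.6 and 20.6 CPM in CLP+VNS libraries, against 32.2, 26.1, 28.7, 33.2 and 28.1 CPM in Sham+VNS libraries, again without overlap, at -0.39 ± 0.11 and an adjusted p of 0.00930. Thra (identifier 81812), the more abundant of the pair, had 74.1, 78.7, 63.6, 62.8 and 73.1 CPM in CLP libraries, against 86.0, 86.2, 71.3, 93.5 and 87.8 CPM in Sham libraries. Sham replicate 3 lay within the CLP range. The log2 fold change of -0.27 ± 0.09 had an adjusted p of 0.0250, and the call was lost without Sham replicate 4, CLP replicate 4 or CLP replicate 5, at adjusted p-values between 0.066 and 0.0706.

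The tail end of Thra overlaps the clock gene Nr1d1 on the opposite strand. The libraries mark the strand, per the labels' protocols, but none of the sources used here says how the authors counted, so reads of the overlap may have been given to either gene. Nr1d1 was lower as well, by -1.25 ± 0.34 in CLP against Sham (adjusted p = 0.00656) and by -0.96 ± 0.34 in CLP+VNS against Sham+VNS (adjusted p = 0.0403). In stimulated rats Thra had 70.3, 91.0, 70.3, 65.5 and 83.4 CPM in CLP+VNS libraries, against 84.9, 88.0, 99.2, 94.5 and 81.6 CPM in Sham+VNS libraries. CLP+VNS replicates 3 and 11 reached into the Sham+VNS range, and the difference of -0.24 ± 0.09 had an adjusted p of 0.0629.

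Of 7 tested genes for thyroid hormone enzymes, transport and response, 1 was higher and 4 were lower in CLP lungs. For this and the vitamin D list below, the share of all genes was 19.8% called higher and 20.5% lower. Hr, a corepressor that is itself a thyroid hormone target in brain, fell by 1.06 (SE 0.19, adjusted p = 0.000240). Klf9, a transcription factor that answers to thyroid hormone and to glucocorticoids, rose by 0.41 ± 0.12 (adjusted p = 0.00874). Thrsp, a gene of lipid synthesis in fat and liver, had the largest fitted value, -7.75 ± 2.42 (adjusted p = 0.0166), but it rested on a few animals: its 5 CLP libraries held 12 counts in all, while the Sham libraries ran from 0 to 189 CPM with a median of 0.363 CPM. Without Sham replicate 1 it was at -3.39 with an adjusted p of 0.247. The vitamin D receptor gene Vdr had 3.79, 3.88, 3.40, 3.66 and 3.16 CPM in CLP libraries, against 3.39, 3.28, 4.72, 4.15 and 2.97 CPM in Sham libraries. These overlapped fully, with a log2 difference of -0.05 (95% interval -0.38 to 0.29). Cyp27a1, a mitochondrial hydroxylase of vitamin D and cholesterol, fell by 0.59 (SE 0.11, adjusted p = 0.000327); of the 4 tested genes of vitamin D metabolism and response, 1 was higher and 1 was lower.

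Of the steroid receptors outside the glucocorticoid receptor, both tested genes were lower. Nr3c2 (identifier 25672), the mineralocorticoid receptor, had 15.4, 17.6, 16.8, 9.37 and 15.6 CPM in CLP libraries, against 20.9, 27.3, 27.5, 24.3 and 30.0 CPM in Sham libraries. The groups did not overlap, and the log2 fold change was -0.80 ± 0.16 with an adjusted p of 0.000465. In stimulated rats it had 14.9, 21.9, 16.7, 14.5 and 18.2 CPM in CLP+VNS libraries, against 27.3, 18.9, 27.2, 28.8 and 26.5 CPM in Sham+VNS libraries. CLP+VNS replicate 3 reached above Sham+VNS replicate 2, and the log2 fold change was -0.58 ± 0.15 with an adjusted p of 0.00857. Of the 7 tested genes of the mineralocorticoid pathway, 3 were higher and 1 was lower in CLP lungs. The share of all genes was 19.8% called higher and 20.5% lower. Hsd11b2, the enzyme that keeps glucocorticoids off this receptor, fell by 4.15 (SE 0.72, adjusted p = 0.000156), with summed counts of 11 in CLP lungs and 212 in Sham lungs. Nedd4l, the ubiquitin ligase that removes the epithelial sodium channel from the membrane, rose by 0.81 ± 0.17 (adjusted p = 0.000716).

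Esr1 (identifier 24890), estrogen receptor alpha, had 0.357, 0.424, 0.651, 0.293 and 0.588 CPM in CLP libraries, against 15.3, 5.52, 1.60, 3.45 and 3.31 CPM in Sham libraries. Sham replicate 1 held 217 of the 415 Sham counts, and the lowest Sham library still lay above every CLP library. The log2 fold change was -3.63 ± 0.56 (adjusted p = 4.51e-05) and -2.89 without Sham replicate 1, where it was still called. In stimulated rats Esr1 had 0.447, 1.72, 0.865, 0.712 and 0.912 CPM in CLP+VNS libraries, against 1.62, 2.71, 1.51, 4.35 and 2.46 CPM in Sham+VNS libraries. The groups overlapped through CLP+VNS replicate 3, and the fold change of -1.43 ± 0.52 was just past the threshold, at an adjusted p of 0.0474. It lost the call without 13 single libraries in turn, with adjusted p-values up to 0.139. Sham+VNS replicates 4 and 2, highest in Esr1 within their group, held the adipose marker Adipoq at 16.2 and 96.2 CPM. Sham replicates 1 and 2, highest in theirs, held Adipoq at 285 and 9.71 CPM. All other Sham and Sham+VNS libraries held Adipoq at 0.141 CPM or less. The part of adipose tissue in the Esr1 levels was not tested. Of 5 tested estrogen targets, 1 was higher and 1 was lower, where 19.8% of all genes were called higher and 20.5% lower. Xbp1, a transcription factor of the secretory pathway, rose by 0.33 ± 0.09 (adjusted p = 0.00709). Ccnd1, cyclin D1, fell by 0.33 (SE 0.12, adjusted p = 0.0309), a call lost without any of 4 single libraries.

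The estrogen-related receptors bind DNA like estrogen receptors but have no known steroid ligand and are known as regulators of mitochondrial genes. Esrra (identifier 293701), the most abundant of the 3, had 29.3, 31.8, 32.3, 27.2 and 27.3 CPM in CLP libraries, against 26.3, 23.4, 25.3, 24.8 and 24.3 CPM in Sham libraries. Every CLP library was higher, by a small amount, with a log2 fold change of 0.25 ± 0.06 and an adjusted p of 0.00351. In stimulated rats it had 30.7, 28.6, 27.2, 28.2 and 32.6 CPM in CLP+VNS libraries, against 25.2, 24.3, 27.4, 27.5 and 25.4 CPM in Sham+VNS libraries. The groups overlapped at the edge, and the fold change of 0.18 ± 0.06 (adjusted p = 0.0377) was not called with scaling to total counts, at 0.15 and an adjusted p of 0.100, or without any of 5 single libraries. Esrrg (identifier 360896) was nearly silent. Its summed counts over 5 libraries were 17 in CLP lungs and 76 in Sham lungs, of which Sham replicate 1 held 40. Its log2 fold change of -2.09 ± 0.67 (adjusted p = 0.0187) was -1.34 without that library, with an adjusted p of 0.103. Esrrb, at 6.86 ± 2.38 CPM in CLP lungs and 6.35 ± 1.99 CPM in Sham lungs, was not called.

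The COUP-TF genes are orphan receptors, of which Nr2f1 and Nr2f2 are known from venous and lymphatic endothelium, mesenchyme and the developing nervous system. All 3 COUP-TF genes were called lower in CLP lungs. Nr2f1, Nr2f2 and Nr2f6 summed to 72.1 ± 6.83 TPM in CLP lungs and 108 ± 7.43 TPM in Sham lungs, and to 79.5 ± 12.2 TPM in CLP+VNS lungs and 105 ± 6.48 TPM in Sham+VNS lungs. Nr2f2 (identifier 113984), the most abundant, had 65.0, 61.6, 56.7, 61.8 and 51.1 CPM in CLP libraries, against 106, 86.2, 79.6, 86.4 and 95.6 CPM in Sham libraries. The groups did not overlap, and the log2 fold change was -0.61 ± 0.10 with an adjusted p of 9.31e-05. In stimulated rats Nr2f2 had 53.6, 67.5, 82.5, 75.7 and 63.6 CPM in CLP+VNS libraries, against 88.6, 83.5, 97.3, 102 and 84.9 CPM in Sham+VNS libraries. The gap between the groups was narrow, and the log2 fold change was -0.41 ± 0.10 with an adjusted p of 0.00469.

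Nr2f1 (identifier 81808) had 8.79, 8.40, 9.19, 11.9 and 8.45 CPM in CLP libraries, against 10.3, 25.9, 16.8, 18.4 and 19.2 CPM in Sham libraries. Sham replicate 1, the library with adipose and cardiac markers, was the lowest of its group and the only one within the CLP range. The log2 fold change was -0.96 ± 0.24 with an adjusted p of 0.00412. In stimulated rats the same gene had 8.35, 14.1, 13.0, 11.5 and 16.4 CPM in CLP+VNS libraries, against 20.7, 12.4, 9.67, 10.5 and 8.51 CPM in Sham+VNS libraries. These groups lay over each other, with a log2 difference of 0.03 (95% interval -0.47 to 0.54). The difference between the CLP effects with and without stimulation was 0.99 ± 0.34, with an unadjusted p of 0.00943 and an adjusted p of 0.512, so it was not called. Nr2f6 (identifier 245980), the third COUP-TF gene, had 35.9, 38.5, 31.5, 34.3 and 30.5 CPM in CLP libraries, against 39.1, 44.5, 39.7, 41.6 and 38.1 CPM in Sham libraries. The groups met where CLP replicate 3 passed Sham replicate 5. The fold change of -0.25 ± 0.10 was close to the threshold, at an adjusted p of 0.0439, and was lost without any of 11 single libraries. In stimulated rats Nr2f6 had 26.4, 31.3, 35.2, 38.2 and 38.6 CPM in CLP+VNS libraries, against 42.1, 40.5, 50.4, 38.4 and 41.8 CPM in Sham+VNS libraries. The groups met at CLP+VNS replicate 11 and Sham+VNS replicate 4, and the fold change was -0.33 ± 0.10 with an adjusted p of 0.0139.

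Markers of other cell types moved in the same lungs. Beside the counts below, 19.8% of all genes were called higher and 20.5% lower in CLP against Sham. The summed level of 6 endothelial markers ran from 1698 to 2221 CPM in CLP libraries and from 2464 to 2777 CPM in Sham libraries, and 4 of the 6 were called lower. The 6 fibroblast markers summed to between 1770 and 2181 CPM in CLP libraries and between 1972 and 5606 CPM in Sham libraries, with 4 lower and 1 higher. The value of 5606 CPM belonged to Sham replicate 1, and the other Sham libraries ran from 1972 to 3412 CPM. Without Sham replicate 1, 4 fibroblast markers were still called lower and 1 higher. The 6 neutrophil markers summed to between 2846 and 4625 CPM in CLP libraries and between 338 and 846 CPM in Sham libraries, and all 6 were higher. The 6 T cell markers were all lower, at 44.3 to 52.6 CPM in CLP libraries and 73.8 to 125 CPM in Sham libraries. Of the tested markers of other kinds, 4 of 6 of alveolar type 1 cells, 4 of 5 of B cells, 4 of 4 of cardiac muscle, 3 of 5 of adipose tissue, 2 of 6 of smooth muscle, 2 of 6 of mesothelium and 1 of 5 of airway epithelium were lower. Without Sham replicate 1, 0 adipose markers and 1 cardiac marker were called lower, 3 mesothelial markers were called higher beside 2 lower, and 1 marker of alveolar macrophages was called higher. The summed adipose level of the other 4 Sham libraries ran from 20.1 to 69.6 CPM, where the CLP libraries ran from 53.7 to 133 CPM. Much of the CLP sum was Fabp4, which is also on the list of alveolar macrophage markers. Its median was 66.1 CPM in CLP libraries and 15.3 CPM in all Sham libraries. Adipoq, Plin1 and Lep reached at most 0.0732, 0 and 0.217 CPM in CLP libraries. With all libraries, higher were 2 of 6 of alveolar type 2 cells and 2 of 4 of alveolar macrophages. The summed alveolar macrophage level ran from 617 to 848 CPM in CLP libraries and from 327 to 1011 CPM in Sham libraries. The value of 1011 CPM belonged to Sham replicate 1, and the other Sham libraries had 334, 448, 327 and 364 CPM. Both tested liver markers were not called. The part of these shifts in the receptor levels was not tested.

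Nr5a2 (identifier 60349), known as liver receptor homolog 1, is an orphan receptor of liver, pancreas and intestine that binds DNA as a single protein, at sites built on AGGTCA. The RefSeq window around its start on GRCr8, chr13:50984889-50985188 on the minus strand, is shown because it holds this core motif at 2 places, 134 bases before the start and 4 bases after it, both in capitals.
Nr5a2: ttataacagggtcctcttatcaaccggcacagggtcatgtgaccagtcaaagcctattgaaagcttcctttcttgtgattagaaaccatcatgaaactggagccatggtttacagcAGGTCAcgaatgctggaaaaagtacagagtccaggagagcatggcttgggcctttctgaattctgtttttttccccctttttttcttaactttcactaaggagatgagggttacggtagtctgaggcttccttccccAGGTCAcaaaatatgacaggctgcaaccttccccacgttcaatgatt

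The motif AGGTCA, searched on both strands, is short and is found in 16.2% of all windows, among them those of 3 receptor genes. Nr5a2 had 1.79, 1.91, 2.68, 3.22 and 3.53 CPM in CLP libraries, against 5.78, 5.38, 6.60, 5.63 and 3.94 CPM in Sham libraries. The groups did not overlap, and the log2 fold change was -1.06 ± 0.27 with an adjusted p of 0.00452. In stimulated rats it had 2.83, 2.15, 1.51, 1.21 and 1.19 CPM in CLP+VNS libraries, against 2.04, 4.80, 4.53, 3.57 and 2.32 CPM in Sham+VNS libraries. The groups overlapped through CLP+VNS replicates 1 and 3, and the fold change of -0.95 ± 0.29 (adjusted p = 0.0169) was lost without Sham+VNS replicate 3, at -0.84 and an adjusted p of 0.0501.

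Nr6a1 (identifier 362125), the germ cell nuclear factor, which in mouse represses pluripotency genes in the embryo, had 20.2, 19.8, 18.7, 19.8 and 19.0 CPM in CLP libraries, against 14.0, 16.6, 16.7, 15.3 and 17.0 CPM in Sham libraries. The CLP libraries lay close together and above every Sham library, with a log2 fold change of 0.30 ± 0.07 and an adjusted p of 0.00354. In stimulated rats it had 19.6, 18.3, 14.8, 19.0 and 17.4 CPM in CLP+VNS libraries, against 17.5, 15.8, 16.9, 18.8 and 17.0 CPM in Sham+VNS libraries. The groups lay over each other, with a log2 difference of 0.05 (95% interval -0.10 to 0.21). The difference between these effects was -0.24 ± 0.10, with an unadjusted p of 0.0314 and an adjusted p of 0.564. The testicular receptors Nr2c1 and Nr2c2, orphan receptors that often repress transcription, were not called: Nr2c2 was at 121 ± 3.51 CPM in CLP lungs and 114 ± 6.99 CPM in Sham lungs. Rora, a receptor of the clock's activating arm and of innate lymphoid cells, had 36.6, 37.7, 40.9, 39.3 and 33.1 CPM in CLP libraries, against 33.9, 35.5, 37.3, 25.3 and 30.6 CPM in Sham libraries. Its log2 difference of 0.21 ± 0.09 had an adjusted p of 0.0732.

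The 9 receptor genes left were listed at too few reads to test. In TPM the highest of them were Nr0b2, at a mean of 0.604 TPM, and Nr1i2, at 0.451 TPM, with Nr0b2 above Nr1i2 in 14 of 20 libraries. Nr1i2, the pregnane X receptor of liver and gut, had summed counts of 58 in CLP+VNS lungs, 43 in CLP lungs, 44 in Sham+VNS lungs and 24 in Sham lungs. Nr0b2, the small heterodimer partner, summed to 96 counts over the 20 libraries, Pgr (progesterone receptor) to 69, Nr1h4 (farnesoid X receptor of bile acids) to 45, Rorb to 36 and Esr2 (estrogen receptor beta) to 34. Nr1i3 (constitutive androstane receptor) summed to 8, and Nr2e3, a receptor of the retina, and Hnf4a, a receptor of liver and gut epithelium, to 7 each. They were left out of the reported fit. Without the filter on low counts, edgeR called Nr1h4 lower in CLP against Sham, at -2.12 ± 0.78 and an adjusted p of 0.0430, with 4 counts in CLP lungs and 20 in Sham lungs. The other 8 were not called there, with adjusted p-values between 0.238 and 0.766. Of 6 tested targets of the xenobiotic and bile acid receptors, 1 was higher and 1 was lower in CLP lungs. The share of all genes was 19.8% called higher and 20.5% lower. Por, the reductase that supplies electrons to cytochrome P450 enzymes, rose by 0.97 ± 0.12 (adjusted p = 5.38e-06), and Slc51a, a subunit of the organic solute transporter, fell by 2.19 (SE 0.31, adjusted p = 2.16e-05), with 0.724 to 1.39 CPM in CLP libraries and 2.07 to 6.07 CPM in Sham libraries.

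Of 12 tested genes for coactivators, which receptors recruit, 2 were higher and 4 lower in CLP lungs, where 40.3% of all genes were called. Ppargc1a, the mitochondrial coactivator that partners with the PPAR and estrogen-related receptors, fell by 0.41 (SE 0.12, adjusted p = 0.00860), and its relative Ppargc1b fell by 0.74 (SE 0.25, adjusted p = 0.0222), a call lost without CLP replicate 3. Pprc1, the third member of that family, rose by 0.29 ± 0.10 (adjusted p = 0.0285), and was not called without Sham replicate 1, Sham replicate 5 or CLP replicate 5. Of 9 tested corepressors, 2 were higher and 2 lower. The median log2 fold change was 0.04 over the coactivators and -0.04 over the corepressors. Hdac3, the histone deacetylase of the corepressor complex, fell by 0.32 (SE 0.06, adjusted p = 0.000648), and Lcor, a ligand-dependent corepressor, rose by 0.28 ± 0.05 (adjusted p = 0.000314).

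**Figure D3:**
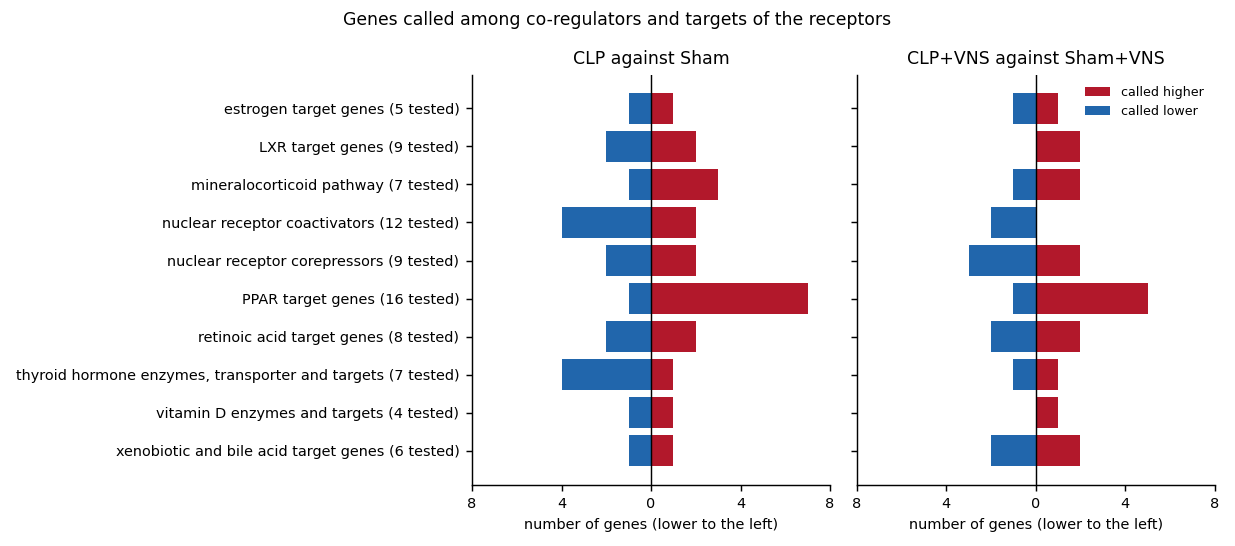
Number of genes called higher (red, to the right) and lower (blue, to the left) in 10 lists of receptor co-regulators and target genes, with the number tested in brackets, for CLP against Sham at left and CLP+VNS against Sham+VNS at right. The PPAR targets have the longest bar, 7 higher and 1 lower of 16 in CLP against Sham and 5 higher and 1 lower in CLP+VNS against Sham+VNS.

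Transcripts of the receptors were tested singly, and differences between forms of 1 gene were not tested. Among the 36 genes, 77 transcripts averaged 1 CPM or more and 76 of them were tested. Of these, 1 was higher and 7 were lower in CLP lungs. Of all 38195 transcripts tested, 10.9% were called and 5.33% were called lower. That background has no cut at 1 CPM, so the sets are unlike in level. Rarb had 2 transcripts at 1 CPM or more. NM_031529 had 16.4, 10.2, 10.8, 10.4 and 10.3 CPM in CLP libraries, against 20.9, 24.5, 22.4, 25.1 and 29.0 CPM in Sham libraries, without overlap, at a log2 fold change of -1.07 ± 0.16 (adjusted p = 0.000144). XM_039092993 ran from 2.49 to 8.07 CPM in CLP libraries and from 6.82 to 14.3 CPM in Sham libraries and was not called, at -0.87 ± 0.36 and an adjusted p of 0.146. For Nr2f2, the main transcript XM_017588643 fell by 0.54 (SE 0.11, adjusted p = 0.00203) and a minor one, XM_006229366, by 1.78 (SE 0.34, adjusted p = 0.00179). That minor transcript had 2.63, 4.07, 2.31, 3.53 and 1.61 CPM in CLP libraries, against 11.0, 9.34, 9.25, 9.05 and 10.2 CPM in Sham libraries. It also fell in stimulated rats, by 1.77 (SE 0.34, adjusted p = 0.00300), where 6.70% of transcripts were called. The main transcript was not called in stimulated rats, at -0.26 ± 0.11 and an adjusted p of 0.196. Another form, NM_080778, was called lower in stimulated rats, at -0.53 ± 0.15 (adjusted p = 0.0424). In CLP against Sham that form was not called, at -0.46 ± 0.15 (adjusted p = 0.0641).

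No single Thrb transcript was called, and its 3 main forms varied widely between libraries of a group. Pparg, not called as a gene, had 1 called transcript, NM_001145366, with 2.77, 2.88, 1.45, 1.03 and 1.39 CPM in CLP libraries, against 17.4, 3.70, 3.03, 2.69 and 3.48 CPM in Sham libraries. Its log2 fold change of -1.67 ± 0.52 (adjusted p = 0.0491) was -0.76 without Sham replicate 1, with an adjusted p of 0.302. The call was lost without any of 7 single libraries of the 10 left out in turn, every CLP library among them. Transcript counts are estimates that share reads between forms, and 43.1% of them are whole numbers, so a shift between forms of 1 gene is less certain than a change of the gene.

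**Figure D4:**
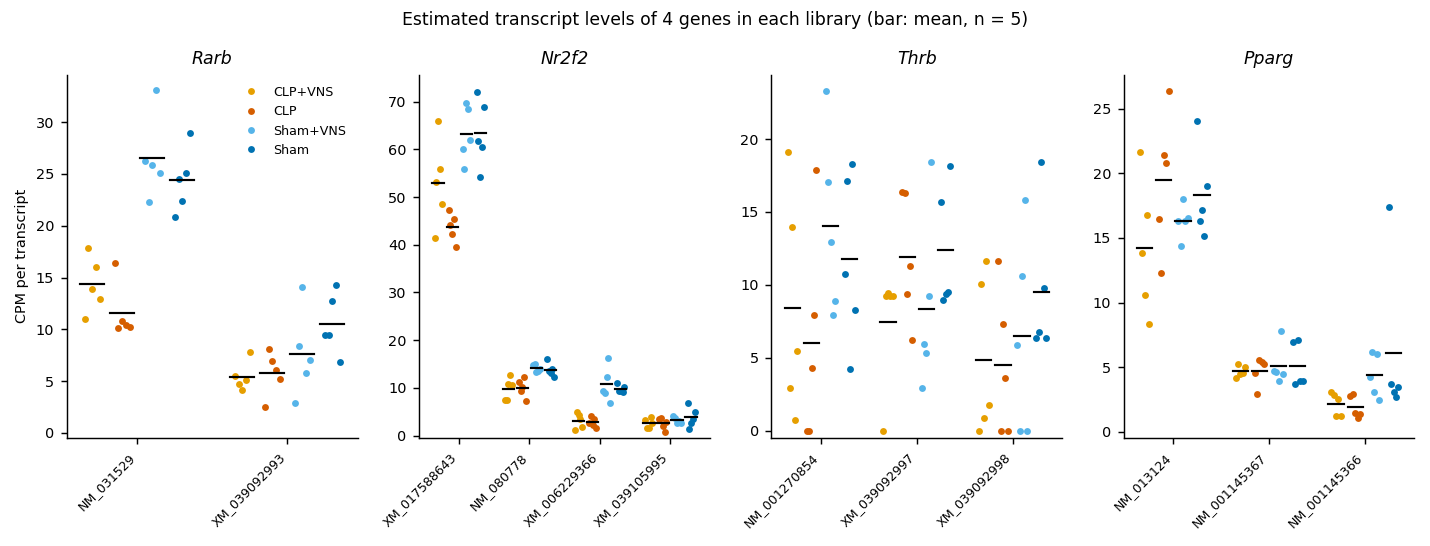
Estimated CPM of each transcript with a mean of at least 1 CPM for Rarb, Nr2f2, Thrb and Pparg, 1 point per library, with a bar at the mean of 5 animals. For NM_031529 of Rarb every CLP+VNS and CLP point lies under every Sham+VNS and Sham point, while the Thrb transcripts reach down to 0 in some CLP+VNS, CLP and Sham+VNS libraries.

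In stimulated rats, CLP+VNS lungs differed from Sham+VNS lungs in 9 receptors, Esrra and Rxra higher and Rarb, Thrb, Esr1, Nr3c2, Nr2f2, Nr2f6 and Nr5a2 lower. This is 9 of 27, where 27.3% of all genes were called, and 7 of 27 lower, where 13.4% of all genes were. The groups did not overlap for 4 receptors, Rarb, Rxra, Thrb and Nr2f2, where 18.9% of all genes did not. With scaling to total counts, 8 receptors were called, all lower, and the split of all called genes was 1698 higher and 2401 lower in place of 2060 higher and 1984 lower. Without Sham+VNS replicate 2 there were 7 receptors called, without Sham+VNS replicate 4 there were 7, and without CLP+VNS replicate 3 there were 10. The pair of comparisons has no library in common.

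**Figure D5:**
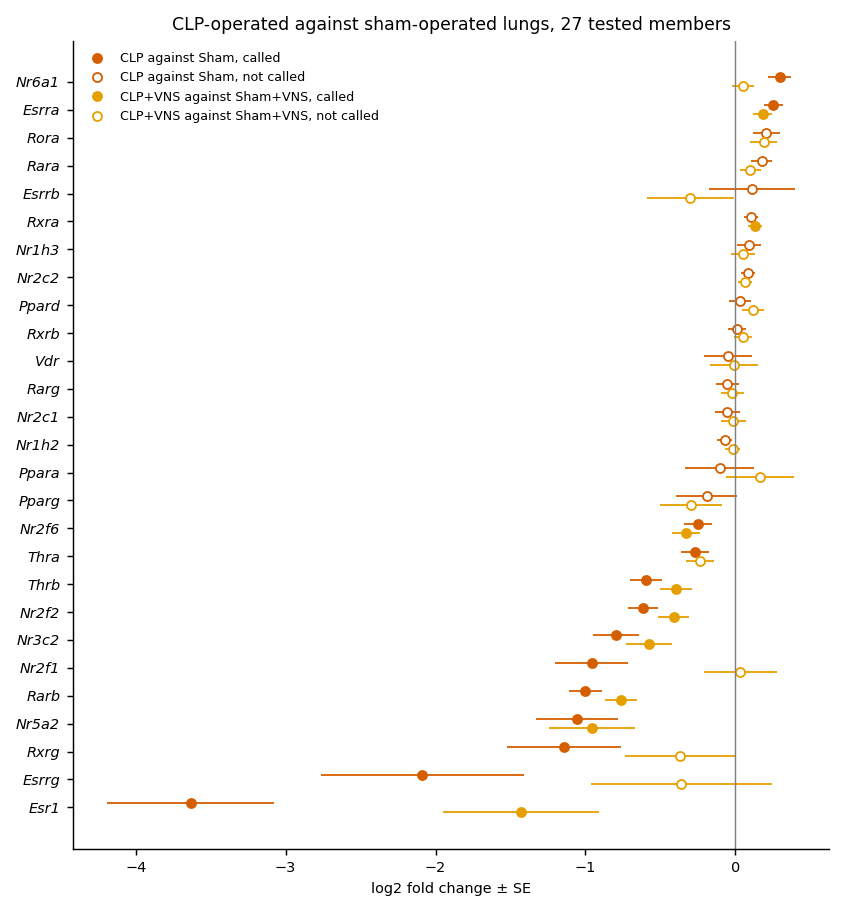
Log2 fold change ± SE of the 27 tested receptor genes in CLP against Sham (red) and in CLP+VNS against Sham+VNS (yellow), filled where called. Esr1 lies furthest left at -3.63 in CLP against Sham; Nr2f1 is at -0.96 in CLP against Sham and at 0.03 in CLP+VNS against Sham+VNS.

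Stimulation itself moved no receptor past the threshold. In CLP+VNS against CLP, 0 of 27 receptors were called, where 0.027% of all genes were, and 0 had an unadjusted p under 0.05. The groups were apart without overlap for 0 receptors, where they were for 2.26% of all genes. The levels of the main receptors lay over each other: Nr2f2 averaged 68.6 ± 11.1 CPM in CLP+VNS lungs and 59.3 ± 5.45 CPM in CLP lungs, a log2 difference of 0.21 (95% interval -0.00192 to 0.42), and Rarb 20.8 ± 3.56 CPM in CLP+VNS lungs and 18.1 ± 1.27 CPM in CLP lungs, a difference of 0.21 (95% interval -0.02 to 0.43). For Nr3c2 the difference was 0.21 (95% interval -0.12 to 0.53). In Sham+VNS against Sham, 0 of 27 receptors were called by edgeR, where 0% of all genes were, and 3 had an unadjusted p under 0.05, namely Esr1, Nr2f1 and Nr5a2, all lower. The share of all genes under that unadjusted threshold is not given here, so the count of 3 is no result about the receptors. No receptor had groups without overlap, where 0.798% of all genes did. DESeq2 called 0 receptors in both of these comparisons. Nr5a2 averaged 3.45 ± 1.25 CPM in Sham+VNS lungs and 5.47 ± 0.971 CPM in Sham lungs, a difference of -0.66 ± 0.27 with an adjusted p of 0.605. The test of whether the CLP effect differed with stimulation called 0 receptors and 0% of all genes, and 3 receptors, Esr1, Nr2f1 and Nr6a1, had an unadjusted p under 0.05. This count, too, stands without the share of all genes and is no result about the receptors. The widest of the 3 was Esr1, at 2.20 ± 0.77 with an adjusted p of 0.514. Its CLP against Sham part was -3.63 with Sham replicate 1 and -2.89 without that library. The value of the Esr1 interaction without that library is not given here.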

How the data were processed

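The deposited tables, by gene and by transcript, give the authors' values for 20 rat lung libraries. Per the file headers they hold read counts, TPM values and other columns; 100 columns of per-sample values (FPKM and normalized counts among them) and group averages were not used. The deposited read counts are estimated counts (91.5% of gene values and 43.1% of transcript values are whole to within 1e-09) and were rounded to whole numbers. TPM values were calculated by the authors and are scaled for transcript length and library size. Per the submitters' processing notes the assembly was mRatBN7.2; for the aligner, the counter and its strand setting, not given in the sources used here, nothing is assumed. Per the labels' protocols, libraries were poly(A)-selected and strand-marked.

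Genes were kept with edgeR 4.0.16 (R 4.3.3) filterByExpr at a minimum count of 10, scaled with TMM (factors 0.977 to 1.04) and fitted with glmQLFit (robust) to the 4 group means over all 20 libraries (16 residual degrees of freedom; the common coefficient of biological variation was 0.161). Quasi-likelihood tests were two-sided, adjusted by Benjamini-Hochberg over 14794 genes, and called at an adjusted p below 0.05. Adjusted p-values of genes and transcripts come from these edgeR fits, unless another setting or a left-out library is named beside them. Standard errors (SE) of these fits were back-calculated, as the absolute log2 fold change over the square root of the test's F statistic. The 95% intervals are the log2 fold change plus and minus that SE times a t quantile. Transcripts were fitted the same way. The script was tested on simulated data. Alternatives were total count and RLE scaling, DESeq2 1.42.0, no filter, a replicate block, fits of only the groups compared, and leaving out each library. For transcripts, only the 10 CLP and Sham libraries were left out in turn.

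Every receptor is accounted for; called receptors at a mean of at least 1 CPM are given with every library, and of each list's called genes that averaged 1 CPM or more, those named are up to the 3 of largest fold change in CLP against Sham, some of which are not reported here. The receptors, the 10 lists of co-regulators and targets and the 14 marker lists were chosen with earlier results of these data known. Promoter windows from RefSeq, assembly GRCr8, were found for 32 of the 36 receptors by gene identifier.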

Additional observations from a re-analysis of the deposited data

Results flagged for a closer look

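Within groups of 5, a library was marked where its gap to the nearest other library exceeded 0.71 of the group's range (Dixon's criterion). This marked 8 of 108 groups of tested receptors; chance marks about 1 in 20 groups. The following 3 belong to Sham replicate 1, the library with adipose and cardiac markers: Pparg at 52.0 CPM, Esr1 at 15.3 CPM and Esrrg at 2.82 CPM, each the highest Sham value. In CLP replicate 5, Nr3c2 was low at 9.37 CPM and Nr2f1 was high at 11.9 CPM. Rarg was high in CLP replicate 1 at 77.6 CPM, within the CLP+VNS and Sham+VNS ranges and level with the highest Sham library. Nr3c2 was low in Sham+VNS replicate 2 at 18.9 CPM, a library that also held Adipoq at 96.2 CPM. Vdr was low in CLP+VNS replicate 3 at 2.44 CPM.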

How the results depend on the processing

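Rarb, Thrb, Esr1, Nr3c2, Nr2f2, Nr5a2, Esrra and Nr6a1 in CLP against Sham, and Rarb, Nr2f2 and Nr2f6 in CLP+VNS against Sham+VNS, kept their direction and call under every alternative run. Leaving out each library in turn gave 11 to 14 receptors called (13 as reported) and 5290 to 6025 genes (5955) in CLP against Sham. In CLP+VNS against Sham+VNS it gave 6 to 10 receptors (9) and 3385 to 4224 genes (4044). For transcripts, only the 10 CLP and Sham libraries were left out in turn, giving 3367 to 4132 called in CLP against Sham (4178). In CLP+VNS against CLP the 4 genes called became 0 with total count scaling, 0 in a fit of the 2 groups alone, 128 with DESeq2 and 0 to 277 without 1 library, 277 being without CLP+VNS replicate 1; 0 receptors were called in each of these. In Sham+VNS against Sham the count of 0 genes became 6 with DESeq2, 1 in a fit of the 2 groups alone and 0 to 2 without 1 library, and for the interaction it became 6 with DESeq2 and 0 to 3 without 1 library.

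Nr2f1 in CLP+VNS against Sham+VNS, at 0.03 and not called, ranged from -0.0776 to 0.300 when single libraries were left out, being below 0 without Sham+VNS replicates 3, 4 and 5 (-0.0431, -0.0198 and -0.0741) and CLP+VNS replicates 3 and 11 (-0.00758 and -0.0776), and was -0.00881 with the replicate block. The cause was not tested. Low counts limit Esrrg, Esr1, Rxrg and Nr5a2.

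Equal replicate numbers were not shown to pair animals. Correlations of same-numbered libraries' deviations ran from -0.055 to 0.026 (CLP, Sham), -0.122 to 0.059 (CLP+VNS, Sham+VNS), -0.027 to 0.181 (CLP+VNS, CLP) and -0.180 to 0.019 (Sham+VNS, Sham), and 1 of 8, 0 of 6, 4 of 6 and 0 of 10 libraries were closest to their own number. With the replicate number as a block, CLP against Sham had 4732 genes and 9 receptors called, CLP+VNS against Sham+VNS 2110 genes and 3 receptors, and CLP+VNS against CLP 0 genes. The receptors lost under the block were Rxrg, Esrrg, Nr2f1 and Nr2f6 in CLP against Sham (adjusted p 0.0590 to 0.115), and in CLP+VNS against Sham+VNS Nr3c2 (0.0821), Rxra (0.0966), Thrb (0.111), Esrra (0.168), Nr5a2 (-0.53, 0.354) and Esr1 (0.405). Leaving Sham replicate 1 out of the marker counts, and the settings tried for Rara, were chosen after seeing the data.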
